A study of Mus musculus with 2 samples.

Results

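The mitochondrial ribosomal proteins are the nuclear-encoded proteins of the ribosome inside mitochondria. The members described here are all rows of the deposited count tables whose symbol begins with Mrpl or Mrps followed by a number. That rule found 77 of 23282 rows in each table, 48 of the large subunit (Mrpl) and 29 of the small subunit (Mrps), with no symbol listed more than once and no pseudogene row among them. The rule uses names and no measured value.

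RNA was measured in 3T3-L1 cells, a line of mouse fibroblasts able to become fat cells, which the labels call adipocytes. One set of cells received an siRNA against Pink1, a kinase that tags failing mitochondria for breakdown, and the other cells received a control siRNA. Each group is 1 library of the same line, so no difference below has a replicate check and no p-value can be given. In bulk RNA of this kind, fewer cells of a type and less RNA per cell cannot be told apart. No source used here gives the days of differentiation, the time after transfection or the siRNA dose.

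The libraries held 14214768 counts for the Pink1 siRNA and 13803174 for the control siRNA. The targeted gene Pink1 had 351 counts in the Pink1 siRNA library, against 511 in the control library, a ratio of 0.687 whose widened interval (explained further on) ran from 0.445 to 1.05. All 8 adipocyte markers and all 4 preadipocyte and fibroblast markers checked had counts in both libraries. The summed adipocyte markers stood at 2728 CPM, the count scaled to a fixed library size, in the Pink1 siRNA library, against 2539 CPM in the control library. Fabp4 carried most of that gap (1196 against 1047 CPM), and 4 of the 8 were lower, with Plin1 at a ratio of 0.607 and Cebpa at 0.891. The summed preadipocyte and fibroblast markers stood at 14366 against 12699 CPM, more than the adipocyte markers in both libraries. Dlk1 held most of that sum (9329 against 8326 CPM), and all 4 were higher in the Pink1 siRNA library, with Thy1 at a ratio of 1.47. The part of these markers in the ratios below was not tested. The macrophage markers summed to 2.43 against 3.57 CPM and the endothelial markers to 0.50 against 0.57 CPM, with Adgre1 and Cdh5 at 0 counts in both libraries, which allows up to 0.214 CPM each.

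The mitochondrial ribosome translates the few messages encoded in mitochondrial DNA, which specify core subunits of the respiratory chain and of ATP synthase. All of its proteins are encoded in the nucleus, made in the cytosol and imported, while its RNAs come from mitochondrial DNA. The small subunit decodes the message, and the large subunit joins amino acids and releases the new chain through an exit tunnel at the inner membrane. Many members have a counterpart in the bacterial ribosome. Others are found only in mitochondria, where they cover a ribosome with shortened RNAs. In fat cells the respiratory chain these ribosomes serve supports lipid synthesis and fat burning.

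The promoters of mitochondrial ribosomal protein genes are shown first because short motifs recur in them. RefSeq promoter windows (GRCm38.p6, 250 bases before to 50 bases after the transcription start) were at hand for 68 of the 77 members, and the first window listed for each gene was searched on both strands for the letters of 3 motifs. The stretches below end no later than the start site, counted from RefSeq, and the capitals mark the ETS core CCGGAAG, letters of the kind read by GABPA. Mrpl3 and Mrps18a are shown because their ratios were among the highest of their subunits, and Mrpl22 because its ratio was among the lowest. Mrps22 stands for a member whose counting interval includes 1 and Mrpl34 for an abundant one.
Mrpl3 (chr9:105053219-105053267, plus strand): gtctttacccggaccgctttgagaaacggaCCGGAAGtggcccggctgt
Mrps18a (chr17:46110948-46111003, plus strand): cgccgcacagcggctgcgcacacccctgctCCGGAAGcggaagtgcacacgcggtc
Mrpl34 (chr8:71464859-71464925, plus strand): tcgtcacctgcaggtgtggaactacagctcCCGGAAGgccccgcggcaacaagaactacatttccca
Mrps22 (chr9:98601680-98601720, minus strand): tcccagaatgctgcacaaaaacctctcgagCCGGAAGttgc
Mrpl22 (chr11:58171581-58171647, plus strand): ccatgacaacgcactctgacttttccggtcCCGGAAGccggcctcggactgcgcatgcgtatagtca
In the Mrpl22 stretch the letters of the NRF1 core, read on the opposite strand, follow the ETS core in lower case.

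The ETS core was present in 24 of 68 member promoters (35.3%), against 19.4% of 8566 promoters of measured protein-coding genes and 9.12% of all 27025 promoters. Cytosolic ribosomal protein genes held it in 23 of 57 promoters (40.4%), so the share is not particular to the mitochondrial family. It was found in 13 of 42 large-subunit promoters and in 11 of 26 small-subunit promoters. The NRF1 core GCATGCGC was present in 8 of 68 (11.8%), against 5.92% and 2.80% in the same sets, and 7 of those 8 were large-subunit genes. The YY1 core AAGATGGCG (reverse complement CGCCATCTT) was present in 8 of 68 (11.8%), against 3.56% and 1.49%. At least 1 of the 3 motifs stood in 34 of 68 member promoters, against 26.7% of measured protein-coding genes. Both strands of the NRF1 core can match the same bases, so its 14 matches in 8 promoters are not all separate sites. Matches on opposite strands overlap in Mrpl9, Mrpl32 and Mrpl39. Of the 28 ETS matches, 25 began between 100 bases before and 50 bases after the start, with a median of -17.5 bases. A match is a run of letters and not a tested binding site.

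**Figure D1:**
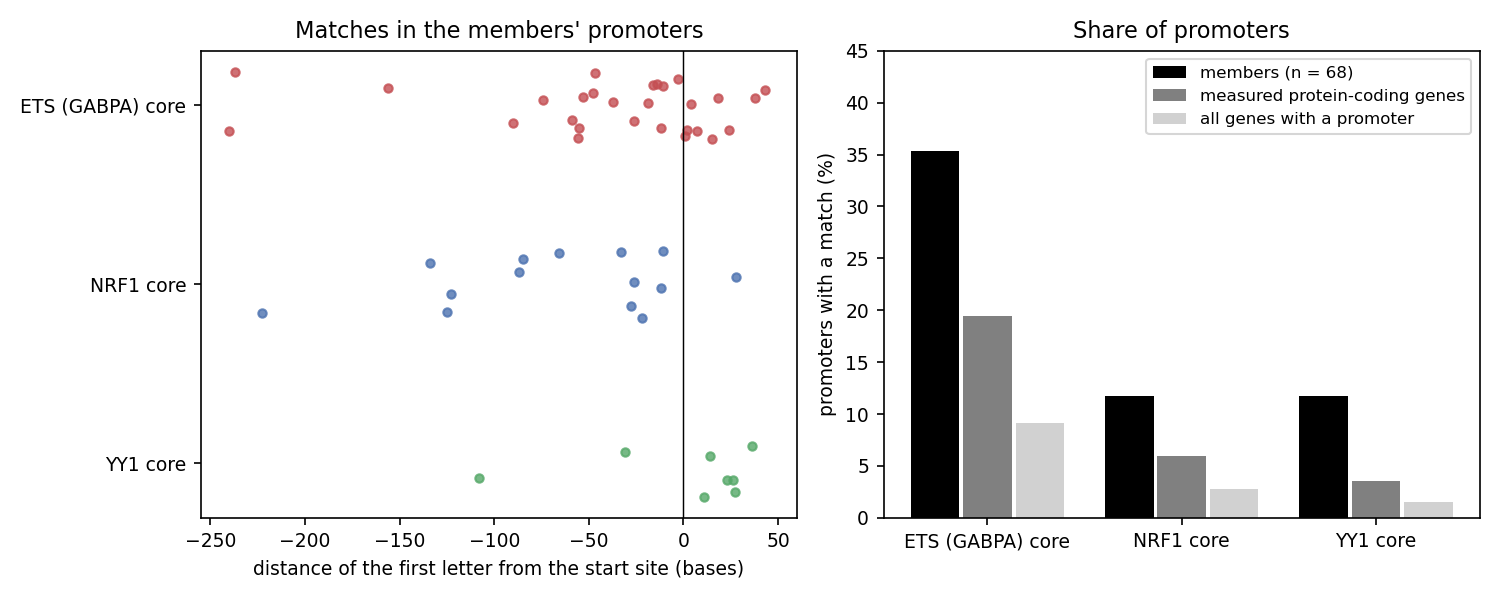
Left, position of each motif match in the members' promoter windows, as the distance in bases of its first letter from the transcription start (0), 1 point per match with vertical scatter for visibility. Right, percent of promoters with a match among members, measured protein-coding genes and all genes with a promoter. Each motif is found in a larger share of member promoters, 35.3% against 19.4% and 9.12% for the ETS core.

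The genes lie on 17 chromosomes and are compact, with a median of 4 exons. Their longest coding transcripts have a median length of 1316 bases (463 to 7300), against 3174 bases for measured protein-coding genes, and a median GC content of 50.1% against 49.9%. A protein-coding neighbour that starts within 500 bases in the opposite direction was found for 25 of 77 members (32.5%), against 14.7% of 10727 measured protein-coding genes. Mrpl46 and Mrps11 are such a pair within the family. Mrpl49 is paired with Fau, the gene of a ubiquitin-like protein fused to a cytosolic ribosomal protein, Mrpl36 with the complex I gene Ndufs6, and Mrps12 with Sars2, the mitochondrial seryl-tRNA synthetase gene.

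As a family, mitochondrial ribosomal protein transcripts were at close to the same level in both libraries. All 77 members passed the minimum of 40 summed counts, which 11660 rows of the tables met. Together they held 59398 counts in the Pink1 siRNA library, which is 0.418% of its counts (exact binomial 95% interval 0.415 to 0.421), against 56242 counts in the control library, 0.407% (0.404 to 0.411). The ribosomal RNA row Rn45s held 9.83% of counts in the Pink1 siRNA library, against 10.8% in the control library. The members' shares depend in part on that row. On the scale of CPM over effective library sizes (trimmed mean of M values, TMM), the members' sum was 4241 CPM in the Pink1 siRNA library, against 4015 CPM in the control library. The ratio of these sums was 1.06 (1.04 to 1.07). This interval, like every interval given without the word widened, covers counting error only.

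No member passed the rule of size, which calls a gene higher or lower when its ratio of Pink1 siRNA over control siRNA reaches 2 in either direction and the counting interval leaves out 1. Of all measured rows, 1.63% were called higher and 2.39% lower, and read against those shares 0 of 77 is not a result about the members. With a ratio of 1.5 in place of 2, 1 member was higher and 1 lower, where 5.43% and 6.64% of all measured rows were. Among the 9426 measured rows whose mean level lies within the members' range, those shares were 3.46% and 3.83%. Ratios between 0.8 and 1.25 were found for 64 of 77 members (83.1%), against 72.9% of those 9426 rows.

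The members' ratios leaned slightly upward. Their median log2 ratio, computed with 0.5 added to both scaled counts, was 0.07 (quartiles -0.10 and 0.18), against 0.00 over all measured rows and 0.01 over rows in the members' level range. A ratio above 1 was found for 45 of 77, against 51.1% of all measured rows and 51.4% in the level range. Mrps17, the homolog of bacterial S17, is the member nearest to 1 and had 1197 counts in each library. After TMM scaling its ratio lies just above 1, so Mrps17 is counted among the 45. The same holds for later counts of groups that include it. Counting intervals lay above 1 for 26 members and below 1 for 12, where 26.2% and 24.9% of all measured rows had such intervals. With library totals in place of TMM scaling, 18 intervals lay above 1 and 16 below, and 41 of 77 ratios were above 1.

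Counting intervals are narrower than the spread seen between these 2 libraries. An interval widened by that spread, taken over the rows of the same twentieth of mean level (a factor of 6.10 to 128 on the variance for members, median 9.73), included 1 for all 77 members. Such an interval lay above 1 for 2.09% and below 1 for 2.01% of all measured rows, and for 2.10% and 2.03% within the members' level range. The factor holds real differences between the cultures as well as technical ones.

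**Figure D2:**
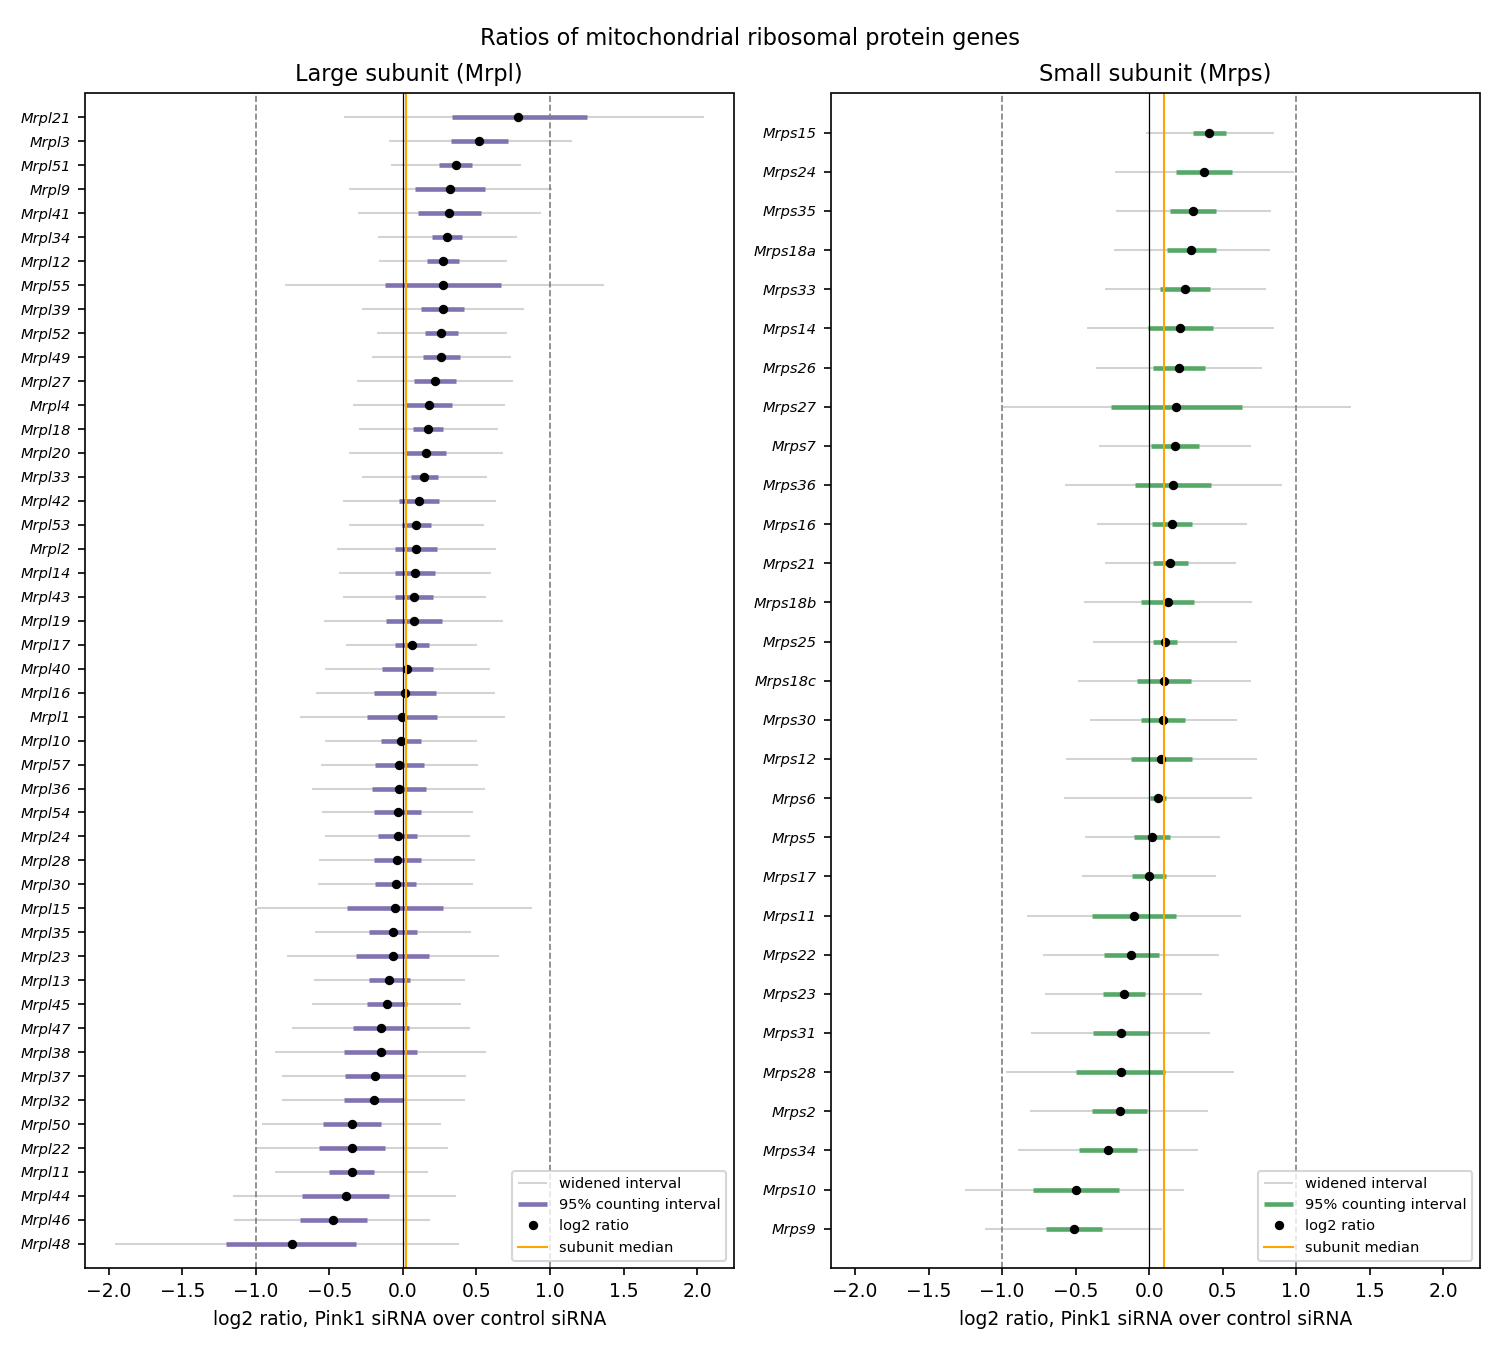
Log2 ratio of each member, Pink1 siRNA over control siRNA, with its 95% counting interval (thick line) and its widened interval (thin line), 1 row per gene, for the large subunit (left) and the small subunit (right). Dashed lines mark a ratio of 2 either way and the orange line the subunit median (0.02 and 0.10). Every point lies between the dashed lines and every widened interval crosses 0.

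Large and small subunits kept the same proportion. Large-subunit genes held 59.1% of member counts in the Pink1 siRNA library (58.7 to 59.5) and 59.1% in the control library (58.6 to 59.5). The summed level of the 48 large-subunit genes was 2507 CPM in the Pink1 siRNA library, against 2371 CPM in the control library, a ratio of 1.06 (1.04 to 1.07). The summed level of the 29 small-subunit genes was 1734 CPM in the Pink1 siRNA library, against 1644 CPM in the control library, a ratio of 1.05 (1.04 to 1.07). The ratio of those ratios, large over small, was 1.0 (0.979 to 1.03). A shift between the subunits within that range could not be told from counting error.

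Gene by gene the subunits also lay close together. The median log2 ratio was 0.02 for the large subunit (quartiles -0.07 and 0.19) and 0.10 for the small subunit (-0.12 and 0.18), a difference of -0.08. Ratios above 1 were found for 25 of 48 large-subunit genes and 20 of 29 small-subunit genes. Counting intervals lay above 1 for 15 large-subunit genes and below 1 for 6, and for 11 and 6 small-subunit genes. The genes of a subunit are not replicates of each other, so the difference of medians has no test. With library totals in place of TMM scaling, the large-subunit median became -0.02.

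One gene weighs heavily on the small-subunit sum. Mrps6, the homolog of bacterial S6, is the most abundant member at 408 CPM in the Pink1 siRNA library, against 391 CPM in the control library (5716 and 5482 counts). It held 23.5% of small-subunit counts in the Pink1 siRNA library and 23.8% in the control library. Its ratio was 1.04, and the ratio of the remaining 28 small-subunit genes, summed, was 1.06 (1.04 to 1.08). Mrps6 (chr16:92058270-92112227, plus strand, mm10) shares 159 exon bases with Slc5a3, a myo-inositol transporter gene on the same strand. Slc5a3 had 5793 counts in the Pink1 siRNA library, against 7174 in the control library. Its ratio of 0.808 lies on the other side of 1 from that of Mrps6, and how reads of the shared bases were assigned is not known.

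A symbol does not always give a protein's place. In structures of mammalian mitochondrial ribosomes, Mrps18a and Mrps30 sit in the large subunit, and Mrps36 is now counted as part of the 2-oxoglutarate dehydrogenase complex. Mrps30 had 54.1 CPM in the Pink1 siRNA library, against 50.6 CPM in the control library. Mrps36 had 18.8 against 16.8 CPM. Neither counting interval leaves out 1. With these genes placed by structure, the large subunit held 61.8% of counts in the Pink1 siRNA library and 61.6% in the control library, and the subunits again kept one proportion.

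Levels varied far more between members than between libraries. Mean CPM ran from 6.25 for Mrps27 to 400 for Mrps6, and across the 77 genes the log2 levels of the libraries correlated with r 0.975 (Pearson) and rho 0.976 (Spearman). These are correlations across genes of 1 pair of libraries and not over replicates. Because the QuantSeq kit reads tags from 3′ ends, CPM is not divided by transcript length. The median member stood at 42.6 CPM in the Pink1 siRNA library, against 40.5 CPM in the control library.

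**Figure D3:**
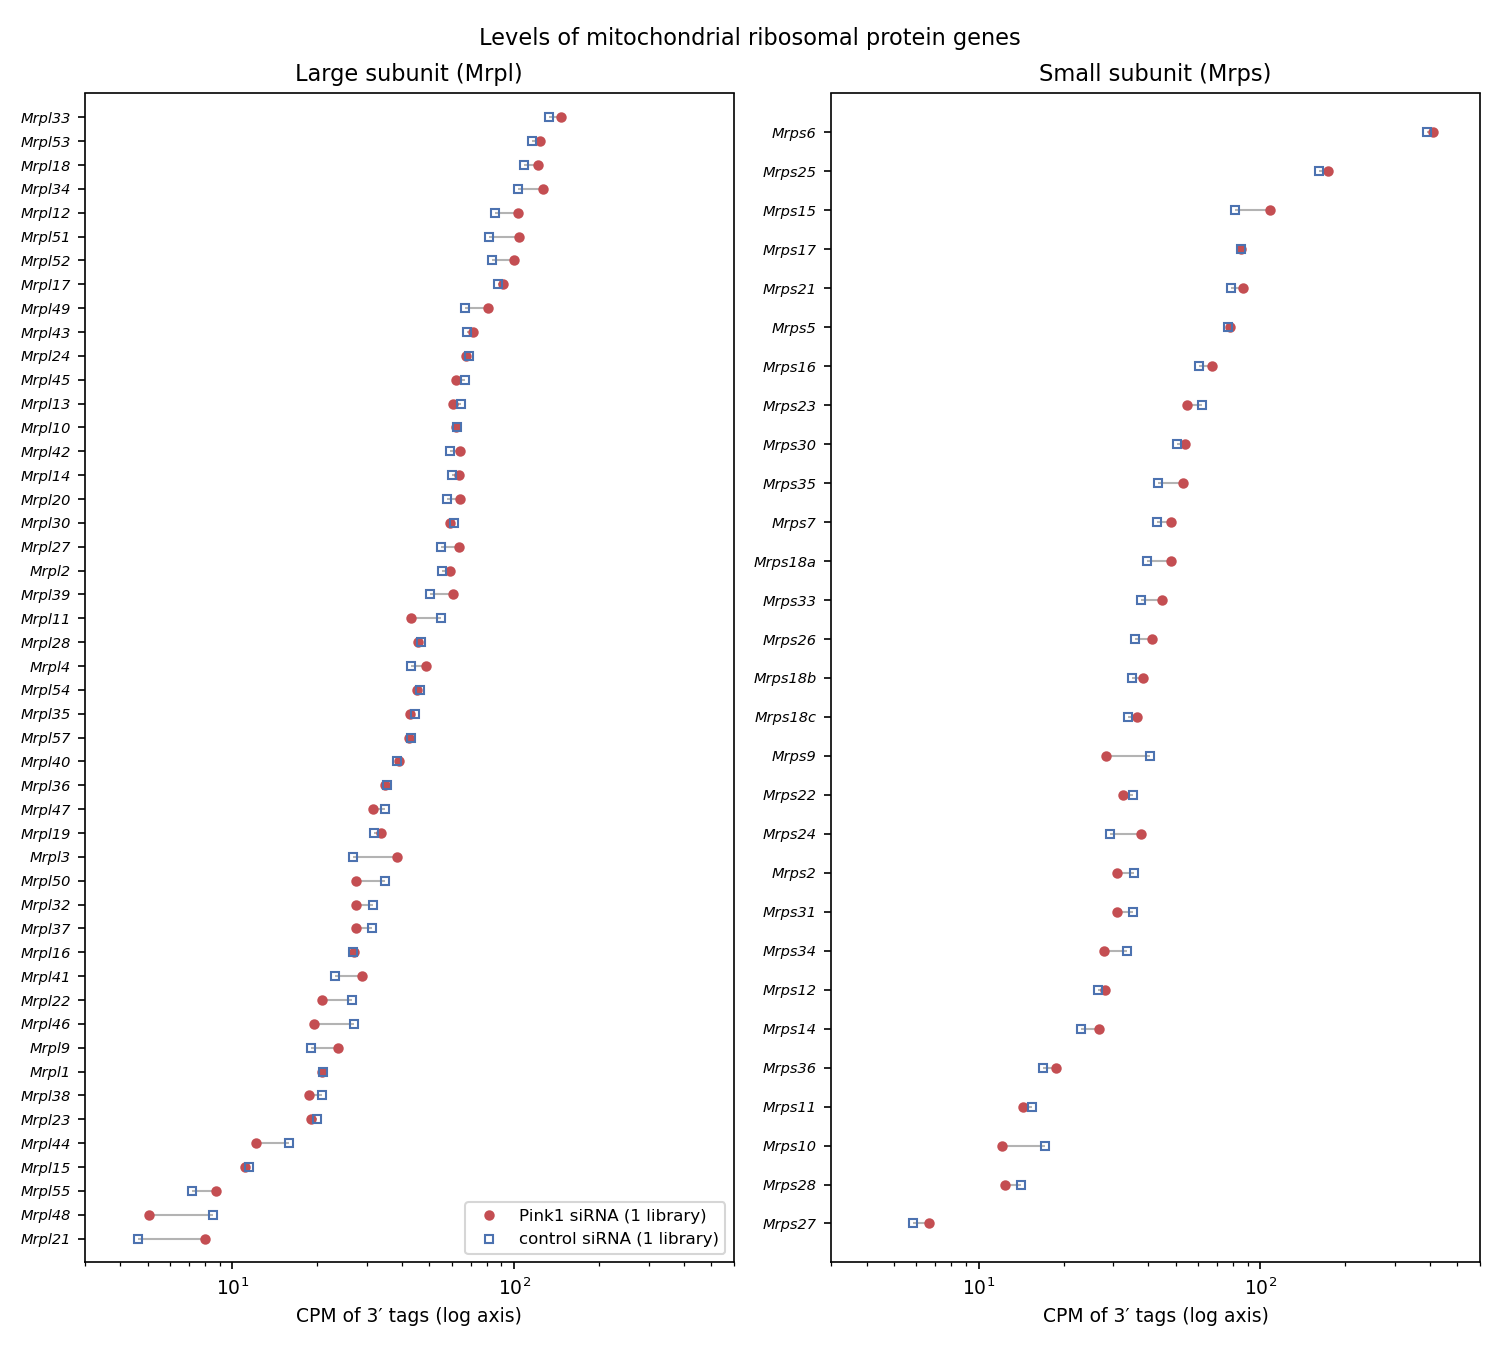
CPM of 3′ tags (log axis) of each member in the Pink1 siRNA library (filled circle) and the control siRNA library (open square), ordered by mean level, large subunit left and small subunit right. Each point is a single library. The points of a gene lie close together relative to the range of levels, from 6.25 CPM for Mrps27 to 400 CPM for Mrps6.

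The most abundant large-subunit genes were Mrpl33, Mrpl53, Mrpl18 and Mrpl34. Mrpl33, a short homolog of bacterial L33, had 147 CPM in the Pink1 siRNA library, against 132 CPM in the control library (ratio 1.11, 1.04 to 1.18). Mrpl53, a protein of mitochondria only, had 124 against 116 CPM. Mrpl18, whose bacterial counterpart binds 5S rRNA, had 122 against 108 CPM (ratio 1.12, 1.05 to 1.21). Mrpl34, the homolog of bacterial L34, had 127 against 103 CPM (ratio 1.23, 1.15 to 1.32). All 4 had the higher value in the Pink1 siRNA library, with the interval of Mrpl53 (0.996 to 1.14) including 1.

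In the small subunit, Mrps25, Mrps15 and Mrps17 came after Mrps6. Mrps25, specific to mitochondria, had 174 CPM in the Pink1 siRNA library, against 161 CPM in the control library, and shares 4590 exon bases with Nr2c2 on the opposite strand. Since strand use in counting is not given, its counts are uncertain. The least abundant small-subunit genes were Mrps27, a pentatricopeptide repeat protein, at 6.64 against 5.85 CPM, Mrps28 at 12.4 against 14.1 CPM, Mrps10 and Mrps11. In the large subunit they were Mrpl21, Mrpl48, Mrpl55 at 8.71 against 7.21 CPM, and Mrpl15 at 11.1 against 11.5 CPM.

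Mrpl21 and Mrpl48 were the pair past a ratio of 1.5, and both are weakly expressed. Mrpl21, the homolog of bacterial L21 (chr19:3282901-3292837, plus strand), had 112 counts (8.0 CPM) in the Pink1 siRNA library, against 65 counts (4.64 CPM) in the control library. Its ratio was 1.72 (1.26 to 2.38, widened 0.759 to 4.13). Mrpl48, specific to mitochondria (chr7:100545751-100608301, minus strand), had 71 counts (5.07 CPM) in the Pink1 siRNA library, against 120 counts (8.57 CPM) in the control library. Its ratio was 0.592 (0.435 to 0.80, widened 0.257 to 1.30). Both share exon bases with a gene on the opposite strand. Mrpl21 shares 117 bases with Ighmbp2, at the starts of both genes, and Ighmbp2 had 138 against 156 counts. Mrpl48 shares 708 bases with Rab6a, which had 1876 against 1757 counts.

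Among large-subunit genes with at least 200 summed counts, Mrpl3 had the highest ratio. Mrpl3, whose bacterial counterpart lies near the peptidyl transferase centre and whose human gene is linked to cardiomyopathy, had 539 counts (38.5 CPM) in the Pink1 siRNA library, against 376 (26.8 CPM) in the control library. Its ratio was 1.43 (1.25 to 1.64, widened 0.937 to 2.21). Mrpl51 followed with 1456 against 1136 counts (1.28, 1.19 to 1.39), then Mrpl9 with 333 against 267 (1.25, 1.06 to 1.47) and Mrpl41 with 404 against 325 (1.24, 1.07 to 1.44). Mrpl51 and Mrpl41 are specific to mitochondria and Mrpl9 is the homolog of bacterial L9, so the top of the order mixes both kinds.

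The lowest of these large-subunit genes were Mrpl46, Mrpl44, Mrpl11 and Mrpl22. Mrpl46, specific to mitochondria, had 273 counts (19.5 CPM) in the Pink1 siRNA library, against 379 (27.1 CPM) in the control library, a ratio of 0.720 (0.614 to 0.844). It shares 173 exon bases with its divergent neighbour Mrps11 (202 against 217 counts, ratio 0.931). Those bases lie at the starts of both genes, away from the 3′ ends that the kit reads. How any reads there were assigned is not known. Mrpl44, which has a ribonuclease III-like fold and a link to human cardiomyopathy, had 170 against 223 counts (0.762, 0.621 to 0.935). It shares 126 exon bases with Wdfy1, at the starts of both genes. Mrpl22, the homolog of bacterial L22 that lines the exit tunnel, had 292 against 371 counts (0.787, 0.673 to 0.920). Mrpl50, named after its value was seen, had the same ratio to 3 digits, with 385 against 489 counts.

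In the small subunit, Mrps15 and Mrps24 had the highest ratios. Mrps15, the homolog of bacterial S15 (chr4:126046925-126055532, plus strand), had 1516 counts (108 CPM) in the Pink1 siRNA library, against 1141 (81.5 CPM) in the control library. Its ratio was 1.33 (1.23 to 1.44), and of all 77 widened intervals its lower end came nearest to 1 from below (0.984 to 1.80). Mrps24, the mitochondrial counterpart of bacterial S3, had 528 against 408 counts (1.29, 1.14 to 1.48) and shares 226 exon bases with Urgcp on the same strand. Mrps35 followed with 742 against 604 counts (1.23, 1.10 to 1.37) and Mrps18a with 677 against 555 (1.22, 1.09 to 1.37).

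Mrps9 and Mrps10 had the lowest ratios of the small subunit. Mrps9, the homolog of bacterial S9 (chr1:42851233-42905683, plus strand), had 398 counts (28.4 CPM) in the Pink1 siRNA library, against 567 (40.5 CPM) in the control library. Its ratio was 0.702 (0.616 to 0.799, widened 0.460 to 1.06). Mrps10, the homolog of bacterial S10, had 170 against 240 counts (0.708, 0.579 to 0.866). Mrps34, a mitochondria-specific protein linked to human respiratory chain disease, had 389 against 472 counts (0.824, 0.719 to 0.945), and Mrps2 had 432 against 497 (0.869, 0.762 to 0.991). The exons of Mrps34 overlap Mapk8ip3 by 1309 bases and Nme3, on the same strand, by 763 bases, so its counts are uncertain.

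The stalk proteins, which work side by side, had ratios above, near and below 1. In the stalk of the large subunit, which recruits translation factors, Mrpl12 had 1447 counts (103 CPM) in the Pink1 siRNA library, against 1198 (85.5 CPM) in the control library (ratio 1.21, 1.12 to 1.31). Mrpl10, which anchors Mrpl12, had 869 against 878 counts (0.990, 0.900 to 1.09). Mrpl11 at the stalk base had 605 counts (43.2 CPM) in the Pink1 siRNA library, against 771 (55 CPM) in the control library (0.785, 0.704 to 0.874). The counting intervals of these 3 genes do not overlap each other, but all 3 widened intervals include 1. Of all measured rows, 26.2% had counting intervals above 1 and 24.9% below, so this split is not a result about the stalk. Mrps12, whose bacterial counterpart guards decoding accuracy, had 394 against 372 counts (1.06, 0.917 to 1.22).

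The 3 paralogs of bacterial S18 had ratios above 1. Mrps18a had 48.3 CPM in the Pink1 siRNA library, against 39.6 CPM in the control library. Mrps18b had 38.3 against 35.1 CPM (ratio 1.09, 0.964 to 1.24), and Mrps18c had 36.3 against 33.8 CPM (1.07, 0.946 to 1.22). Only the counting interval of Mrps18a leaves out 1 among these paralogs. Mrps16 and Mrps22, both linked to severe human mitochondrial disease, had 941 against 845 counts (1.11, 1.01 to 1.22) and 455 against 495 counts (0.919, 0.808 to 1.05).

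Members with a bacterial counterpart and those specific to mitochondria were alike in their sums. The 48 with a counterpart summed to 2770 CPM in the Pink1 siRNA library, against 2616 CPM in the control library (ratio 1.06, 1.04 to 1.07), with a median log2 ratio of 0.07. The 29 specific to mitochondria summed to 1470 against 1399 CPM (1.05, 1.03 to 1.07), with a median of 0.08. The summed intervals of both classes overlap. Members with the ETS core had a median log2 ratio of 0.15 over 24 genes, against 0.00 over 44 without it, and their median levels were 51.2 and 36.9 CPM (mean of both libraries). For the NRF1 core the medians were 0.09 over 8 genes with it and 0.08 over 60 without it. For the YY1 core they were 0.04 over 8 genes with it and 0.08 over 60 without it, so the direction differed between motifs. Such medians were not computed over other measured genes, and the part of any motif in these ratios was not tested.

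Ratios above 1 were more frequent among the abundant members. The 25 most abundant members had a ratio above 1 in 20 cases and a median log2 ratio of 0.11, against 1591 of 2907 measured rows of the same levels and a median of 0.02. The 26 least abundant had a ratio above 1 in 11 cases and a median of -0.06, against 2231 of 4525 rows of the same levels and a median of -0.01. Across the 77 members the Spearman rho of log2 ratio with mean level was 0.305, and it was 0.058 across the 9426 rows in the level range. With transcript length it was -0.14 for members and -0.15 for the 9067 of those rows with a transcript, and with GC content 0.11 and 0.10. These describe genes measured in the same 2 libraries, and the part of depth or length in any ratio was not tested.

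**Figure D4:**
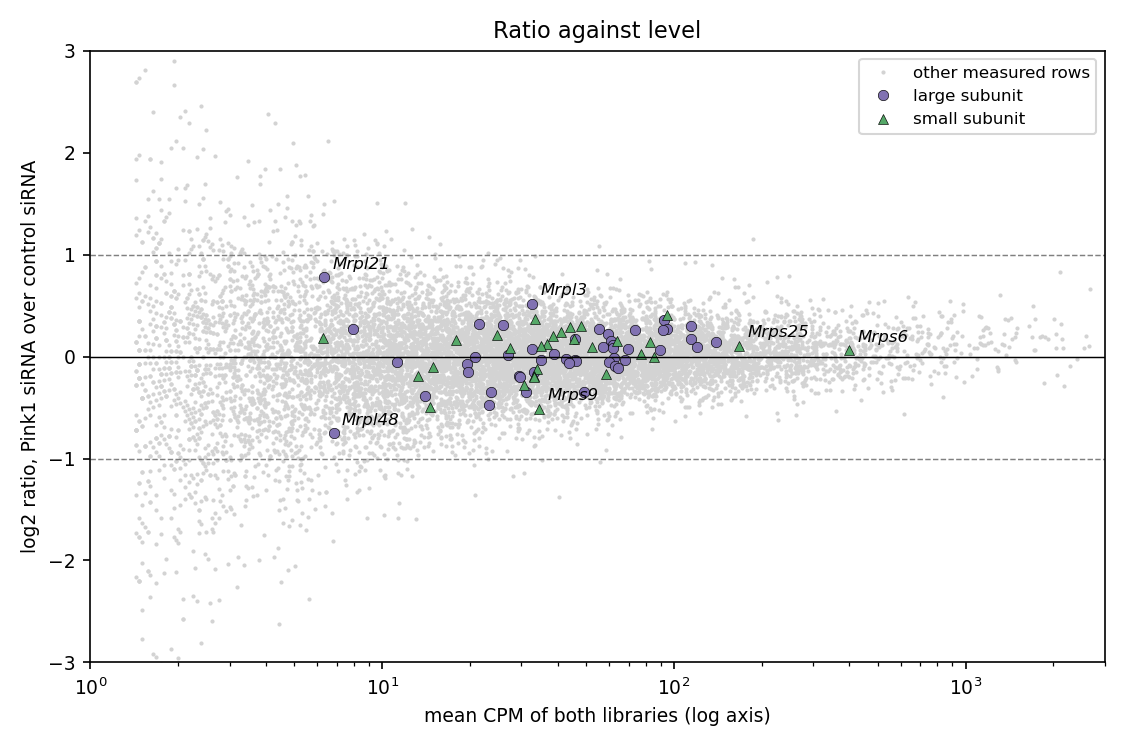
Log2 ratio (Pink1 siRNA over control siRNA) against mean CPM on a log axis for measured rows (grey) and for large-subunit (purple circles) and small-subunit (green triangles) members, with dashed lines at a ratio of 2 either way. Rows beyond the axis limits are not drawn. Members lie inside the cloud of other rows of their level, with Mrpl21 (0.78) and Mrpl48 (-0.75) farthest from 0.

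Exon overlaps and near-identical copies limit single values. Some members overlap a divergent gene only at their starts, away from the 3′ ends that the kit reads. Exons of 19 members, these included, overlap another gene with at least 40 counts. The 58 members without such an overlap summed to 2929 CPM in the Pink1 siRNA library, against 2759 CPM in the control library (ratio 1.06, 1.05 to 1.08), with a median log2 ratio of 0.08. The last 400 bases of 12 members match another annotated gene over at least 100 bases at 95% identity or more. For Mrpl27, Mrpl36, Mrpl40 and Mrpl43 a matching gene has its own row in the tables, though Hsd17b2, which matches Mrpl36, had 0 counts in both libraries. The longest matches have no row. They are Gm42688 for Mrpl53 (400 bases, 100%), Mrpl23-ps1 for Mrpl23 (398, 100%), Gm6997 for Mrpl22 (324, 98.5%) and Gm6434 for Mrpl41 (260, 98.1%). The treatment of multiply mapping reads is not given, so the counts of all 12 are uncertain. In the 22 divergent pairs with a measured partner outside the family, member and partner had ratios on the same side of 1 in 13. No share was computed for divergent pairs of other genes, so this count is not a result about the pairs.

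Ribosome proteins that lack an Mrp symbol had a higher summed ratio than the Mrp family. The 6 listed genes summed to 4885 counts in the Pink1 siRNA library, against 4303 in the control library, a ratio of 1.14 (1.09 to 1.18), where the family had 1.06 (1.04 to 1.07). Their median log2 ratio was 0.10, and none was at least 1.5-fold either way. Dap3, a GTP-binding protein of the small subunit, had 1321 counts in the Pink1 siRNA library, against 1184 in the control library (ratio 1.12, 1.03 to 1.21). Chchd1 had 1376 against 1193 (1.15, 1.07 to 1.25), Ptcd3 had 524 against 508, Aurkaip1 had 372 against 411, and Ict1, a peptidyl-tRNA hydrolase built into the large subunit, had 385 against 384. Gadd45gip1, a large-subunit protein near the exit tunnel, stood highest, with 907 counts in the Pink1 siRNA library, against 623 in the control library. Its ratio was 1.46 (1.31 to 1.61), with a widened interval above 1 (1.03 to 2.06). Because strand use in counting is not given, this value is uncertain.

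Factors that build and run the ribosome showed wider ratios at lower median levels. In the Pink1 siRNA library the medians were 12.9 CPM for assembly genes and 18.2 CPM for translation factors, against 42.6 CPM for members. Mterf4, of the assembly list, was far more abundant, with 14986 counts in the Pink1 siRNA library, against 13817 in the control library (ratio 1.08, 1.06 to 1.11). Of 28 assembly and rRNA modification genes, all measured, 1 was called higher and 1 lower by the rule of size, with a median log2 ratio of 0.03. Of all measured rows 1.63% were called higher and 2.39% lower, so counts this small are not a result about the list. Mterf3, a mitochondrial regulator of transcription and ribosome assembly, had 185 counts in the Pink1 siRNA library, against 85 in the control library (ratio 2.18, 1.67 to 2.85, widened 1.08 to 4.64), and it shares 229 exon bases with Ptdss1 (799 against 747 counts). Trmt61b, a mitochondrial RNA methyltransferase, had 15 against 51 counts (0.294, 0.154 to 0.531, widened 0.0448 to 1.24). The rRNA methyltransferase Nsun4 had 124 against 207 counts (0.599) and Mettl17 had 122 against 190 (0.642), both past a ratio of 1.5. At that ratio 1 of the 28 was higher and 3 were lower, where 5.43% and 6.64% of all measured rows were.

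Among 14 of 15 translation factors found in the tables the median log2 ratio was 0.06, and 1 gene was called lower, where 2.39% of all measured rows were. It was Taco1, a translational activator of a cytochrome oxidase subunit, with 26 counts in the Pink1 siRNA library, against 59 in the control library (0.441, 0.267 to 0.710, widened 0.114 to 1.42). Of 16 genes for mitochondrial transcription and RNA stability (median 0.12), none was called, and Tefm (83 against 46 counts, 1.80) and Fastkd1 (94 against 58, 1.62) passed a ratio of 1.5. At that ratio 5.43% of all measured rows were higher, and a count this small is not a result about the list. The mitochondrial transcription factor Tfam, named after its value was seen, had 439 against 575 counts (0.764, 0.673 to 0.866, widened 0.508 to 1.14). Lrpprc, which stabilises mitochondrial messages and was also named after its value was seen, had 2147 against 1580 counts (1.36, 1.27 to 1.45). It is the 1 gene of the 16 whose widened interval (1.002 to 1.85) leaves out 1, where 2.09% of all measured rows had one above 1. The 4 membrane insertion genes had a median of -0.12 with none past 1.5.

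Cytosolic ribosomal protein genes gave larger ratios in the same libraries. By symbol, 46 large-subunit genes of the cytosolic ribosome were measured, with a median log2 ratio of 0.25 and 43 ratios above 1. For the 31 small-subunit genes the median was 0.25, with 29 above 1. Of all measured rows, 51.1% had a ratio above 1. Widened intervals lay above 1 for 13 of the 77 measured cytosolic genes and below 1 for 0, where 2.09% and 2.01% of all measured rows had such intervals. Their sums stood at 35084 CPM in the Pink1 siRNA library, against 29061 CPM in the control library, for the large subunit, and at 20946 against 17343 CPM for the small subunit. These are ratios of 1.21 (1.20 to 1.21) and 1.21 (1.20 to 1.21), above the interval of 1.04 to 1.07 for the summed mitochondrial genes. The difference between the families has no replicate check, and cytosolic genes have many near-identical copies and far higher levels.

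**Figure D5:**
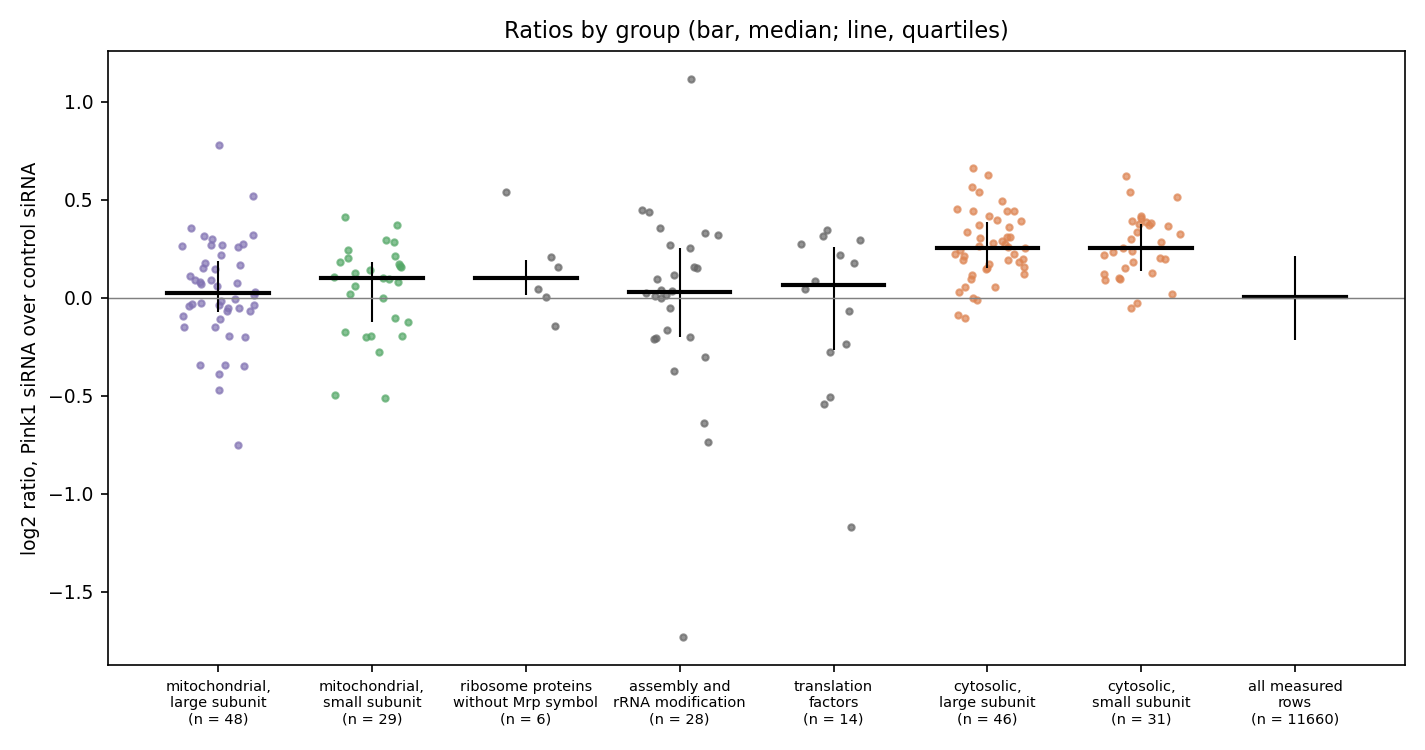
Log2 ratio (Pink1 siRNA over control siRNA) of the measured genes of each group, 1 point per gene with horizontal scatter for visibility, with the median as a bar and the quartiles as a line. For all measured rows no points are drawn. Mitochondrial subunits have medians of 0.02 and 0.10, and cytosolic subunits 0.25 each.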

How the data were processed

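Libraries came from total RNA (Trizol) with the QuantSeq 3′ kit, per the labels' protocols. The deposited files give whole-number read counts per gene symbol, not normalized, 1 file per library. Reads were handled with bcl2fastq 2.20.0.422, Bowtie2 and bedtools on mm10, per the submitters' processing notes. No source used here gives the annotation, the strand setting or the treatment of multiply mapping reads.

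Effective library sizes came from TMM in edgeR 4.0.16 (R 4.3.3). CPM, ratios and exact conditional binomial 95% intervals (SciPy 1.17.1) cover counting error only. Reads carry no molecular identifiers here, so they are not independent molecules. Rows with at least 40 summed counts were called measured. Log2 ratios used 0.5 added to the scaled counts. No p-value was computed because each group has 1 library. Widened intervals divide counts by the mean excess spread of rows of like level. The code was tested on simulated data.

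Positions came from GENCODE M21 (GRCm38, the same assembly as mm10), promoters from RefSeq (GRCm38.p6), and near-identical 3′ ends from BLAST+ 2.17.0. The members and gene lists were chosen with earlier results of these data known. Named genes were those past a fold threshold, the highest and lowest ratios and levels of each subunit, and genes of known role. Promoter stretches of 5 genes were printed. Alternatives covered scaling, count filter, fold, interval, pseudocount, subunit assignment, overlapping genes and the most abundant members.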

Additional observations from a re-analysis of the deposited data

How the results depend on the processing

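Across 12 alternatives, 76 of 88 recomputed values kept their direction and stayed within the limits set for a change, 11 moved and 1 reversed. Many of these values could not change, so the tally does not measure robustness. All 77 members already passed the filter, so leaving it out repeated the main values. The large-subunit shares do not depend on scaling, and the difference of subunit medians was -0.0804 under each scaling. Calls at a ratio of 4 cannot exceed the 0 calls at 2. With total counts in place of TMM the large-subunit median log2 ratio became -0.0201, and the summed ratios became 1.03 for the large and 1.02 for the small subunit, while the median of all measured rows shifted to -0.04. The 2 members past a ratio of 1.5 became 0 with a minimum of 200 summed counts, 0 with the widened interval and 0 with exon-overlapping members left out. The count minimum and the overlap setting drop both genes by construction, and with the spread factor their intervals include 1. The large-subunit share of counts became 61.8% in the Pink1 siRNA library and 61.6% in the control library with subunits by structure, 65.0% and 64.8% with overlapping members left out, and 64.0% and 64.1% without Mrpl33 and Mrps6. The difference of subunit medians ran from -0.0804 to -0.0482, and members called at a ratio of 2 with a counting interval stayed at 0 in the settings run. No paired analysis was possible because each group has 1 library and no replicate number. For the same reason no replicate could be left out. Depth limits genes near 40 counts most.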
